A study of Mus musculus with 12 samples.

Results

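The integrated stress response and the unfolded protein response of the endoplasmic reticulum (ER) were followed through 10 genes in muscle of mice lacking PTRF (cavin 1), a protein that coats caveolae, and of mice that have it. The genes were found by exact match of their symbols among the 21936 genes listed, and all 10 were present. They form 2 branches by their known roles. The ATF4 branch holds 7 genes, the transcription factors Atf4, Atf3 and Ddit3 (CHOP), and Trib3, Asns, Chac1 and Sesn2. The chaperone branch holds 3, Hspa5 (BiP), Xbp1 and Herpud1. The knockout group (KO) is labelled PTRF knockout with muscular dystrophy and the wild-type group (WT) is labelled normal, both C57BL/6N at 3 months of age, with 3 numbered samples per genotype for soleus and 3 for quadriceps. The deletion allele, the sex of the mice and whether animals were pooled were not given in the sources used here.

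The 12 samples were 6 distinct libraries, because each quadriceps sample held the same values as the soleus sample of its genotype and number, with a largest difference of 0 TPM. Each library was counted once, and which of the labelled muscles it came from is unknown. TPM, taken as the unit from the values themselves, gives a gene's part of the transcripts in its library per unit of transcript length and keeps no read depth. Totals ran from 843194 to 872482 TPM. The targeted gene Cavin1 stood at 0.0254 to 0.284 TPM in KO libraries, against 40.0 to 45.2 TPM in WT libraries. The slow fibre myosin Myh7 ran from 2196 to 3291 TPM in KO libraries and from 1702 to 2703 TPM in WT libraries, and Myh4 of type 2B fibres from 238 to 580.1 TPM in KO and from 4.21 to 193.5 TPM in WT. Both belong to a list of 9 muscle fibre genes. In that list KO values lay above all WT values for 2 genes and below for 0. Of all genes at 1 TPM or more in 3 or more libraries, 48.7% and 4.83% did so. Liver genes (Alb, Apoa1, Apoa2, Ttr and Serpina1a) summed to 36.8 TPM in KO library 1, to 1.08 and 1.66 TPM in KO libraries 2 and 3, and to 0.504 to 0.559 TPM in WT libraries. Separate animals are not named for the numbers, so every p-value rests on the spread between samples that may be technical repeats. In bulk tissue, more cells of a type and more RNA per cell cannot be told apart.

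As background, kinases that sense ER stress, amino acid shortage, double-stranded RNA and haem or mitochondrial stress phosphorylate the initiation factor eIF2. Most translation then slows, while the Atf4 message is translated more, and ATF4 protein switches on genes for amino acid synthesis, uptake and transfer RNA charging together with Atf3, Ddit3 and Trib3. In the ER, the sensors ATF6 and IRE1 act in parallel: ATF6 raises chaperone genes such as Hspa5, and IRE1 splices the Xbp1 message into its active form. Because ATF4 is set largely by translation and XBP1 by splicing, gene-level TPM shows the amount of both messages and not the activity of either protein. Skeletal muscle is known to use both responses in regeneration, wasting and mitochondrial disease.

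Promoters of members are shown where they carry an element known from either branch, and 1 gene, Herpud1, carries elements of both. RefSeq promoter windows of GRCm38.p6, from 250 bases before to 50 after the annotated start, were found for all 10 members and searched on both strands. The C/EBP-ATF response element, the composite site known to bind ATF4, was searched as TGATGNAA. It was present in 5 of the 10 members, against 3.97% of the 32851 promoter windows of the genome. Since the members were named for known roles in these responses, this comparison is no test of the element. The ER stress element was searched as CCAAT and CCACG with any 9 bases between them, its second form as ATTGG and CCACG with any 1 base between them, and the core of the unfolded protein response element as TGACGTG. These occurred in 0.119%, 0.0365% and 2.01% of all windows, and in 1 member each: the first form and the core in Hspa5, the second form in Herpud1. Letters are 5′ to 3′ on the strand of the gene, with the matches in capitals; TTGCATCA and TTACATCA are the element read from the opposite strand.
Chac1: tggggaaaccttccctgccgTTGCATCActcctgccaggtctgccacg
Atf3: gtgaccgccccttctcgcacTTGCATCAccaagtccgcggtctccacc
Asns: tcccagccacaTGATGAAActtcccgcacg
Trib3: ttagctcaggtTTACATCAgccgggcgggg
Herpud1: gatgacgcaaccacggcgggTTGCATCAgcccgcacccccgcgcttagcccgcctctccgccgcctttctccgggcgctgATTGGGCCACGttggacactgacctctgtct
Hspa5, core: ggggcgtagcaaTGACGTGagttgcggagg
Hspa5, ER stress element: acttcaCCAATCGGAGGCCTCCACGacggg

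These stretches lie at chr2:119351029-119351076 (plus strand) for Chac1, chr1:191183416-191183463 (minus) for Atf3, chr6:7693214-7693243 (minus) for Asns, chr2:152344028-152344057 (minus) for Trib3, chr8:94386297-94386407 (plus) for Herpud1 and chr2:34771921-34771950 and chr2:34772019-34772048 (plus) for Hspa5. Distances are counted from the RefSeq start, which differs from the GENCODE gene limits given with each member below. It lies 34706 bases downstream of the GENCODE start in Atf3, whose longest GENCODE transcript begins far upstream, 120 downstream in Hspa5, 45 in Asns and 13 in Chac1, and upstream of it in Trib3 and Herpud1, by under 30 bases. By GENCODE the stretches of Asns and of the ER stress element of Hspa5 thus lie inside the first exon. The ATF4 element began 193 bases before the RefSeq start in Chac1, 110 in Atf3, 23 in Asns and 112 in Herpud1, and 15 bases after it in Trib3. In Herpud1 the ATF4 element and the second ER stress element, 52 bases before the start, stand in the same promoter. The windows of Atf4, Ddit3, Sesn2 and Xbp1 held none of these letters, which says nothing of sites elsewhere. A match of letters is a description and no sign that a factor bound.

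Among the transcription factors, Atf3 rose in KO, Ddit3 rose by less, and Atf4 itself did not pass the test. The 11056 genes that reached 1 TPM in 3 or more libraries were fitted together with limma on log2(TPM + 1), and p-values were adjusted over all of them. Of these, 39.2% passed, 36.3% as higher in KO and 2.92% as lower. Across all genes the median log2 fold change was 0.33, so changes are also given after trimmed-mean rescaling of the libraries, which moved that median to -0.04. On that scale 28.8% of 10987 genes passed, 13.6% as higher and 15.2% as lower. All fold changes are KO minus WT of log2(TPM + 1), and the added 1 shrinks those of low genes.

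Atf3, a stress-induced factor of the ATF/CREB family (ENSMUSG00000026628, chromosome 1, 191170296 to 191218039, minus strand), stood at 24.4, 31.2 and 37.8 TPM in KO libraries 1, 2 and 3, against 5.64, 8.24 and 10.8 TPM in WT libraries 1, 2 and 3. The lowest KO library was above the highest WT library, and the KO mean of 31.1 ± 6.72 TPM was 3.78 times the WT mean of 8.22 ± 2.57 TPM (SD, n = 3 each). This came to a log2 fold change of 1.82 ± 0.22 (standard error; limma, adjusted p = 0.000101), and to 1.43 ± 0.23 after trimmed-mean rescaling (adjusted p = 0.00268). Atf3 passed in all 16 alternatives tried.

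Ddit3 encodes CHOP, a factor that ATF4 induces and that drives cell death under lasting ER stress (ENSMUSG00000025408, chromosome 10, 127290774 to 127296288, plus strand). It stood at 35.9, 27.8 and 32.5 TPM in KO libraries, against 19.1, 14.9 and 22.2 TPM in WT libraries, without overlap. The means were 32.1 ± 4.11 TPM in KO and 18.8 ± 3.65 TPM in WT (SD, n = 3 each), a log2 fold change of 0.75 ± 0.17 (standard error; limma, adjusted p = 0.0058). After trimmed-mean rescaling the change was 0.35 ± 0.11 and passed narrowly (adjusted p = 0.0484). It did not pass without both KO library 1 and WT library 2 (log2 fold change 0.52, adjusted p = 0.0746; range over the alternatives for Ddit3 0.00187 to 0.0746). Ddit3 shares 68 exon bases with Mars, the methionyl-tRNA synthetase gene on the opposite strand, and strand use in the counting is not stated. A second identifier annotated as Ddit3 (ENSMUSG00000116429), which shares 105 exon bases with the first, was at 0 TPM throughout.

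Atf4, the factor at the centre of the integrated stress response (ENSMUSG00000042406, chromosome 15, 80255184 to 80257541, plus strand), was at 110.5, 102 and 134 TPM in KO libraries and at 82.8, 92.4 and 101.2 TPM in WT libraries. Its groups did not overlap, though KO library 2 stood within 1 TPM of WT library 3. Its log2 fold change of 0.32 (95% interval -0.02 to 0.66) was close to the median of all genes and did not pass (limma, adjusted p = 0.12), and after trimmed-mean rescaling it was -0.10 (adjusted p = 0.592). By level Atf4 was the most abundant of these factors in every library.

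**Figure D1:**
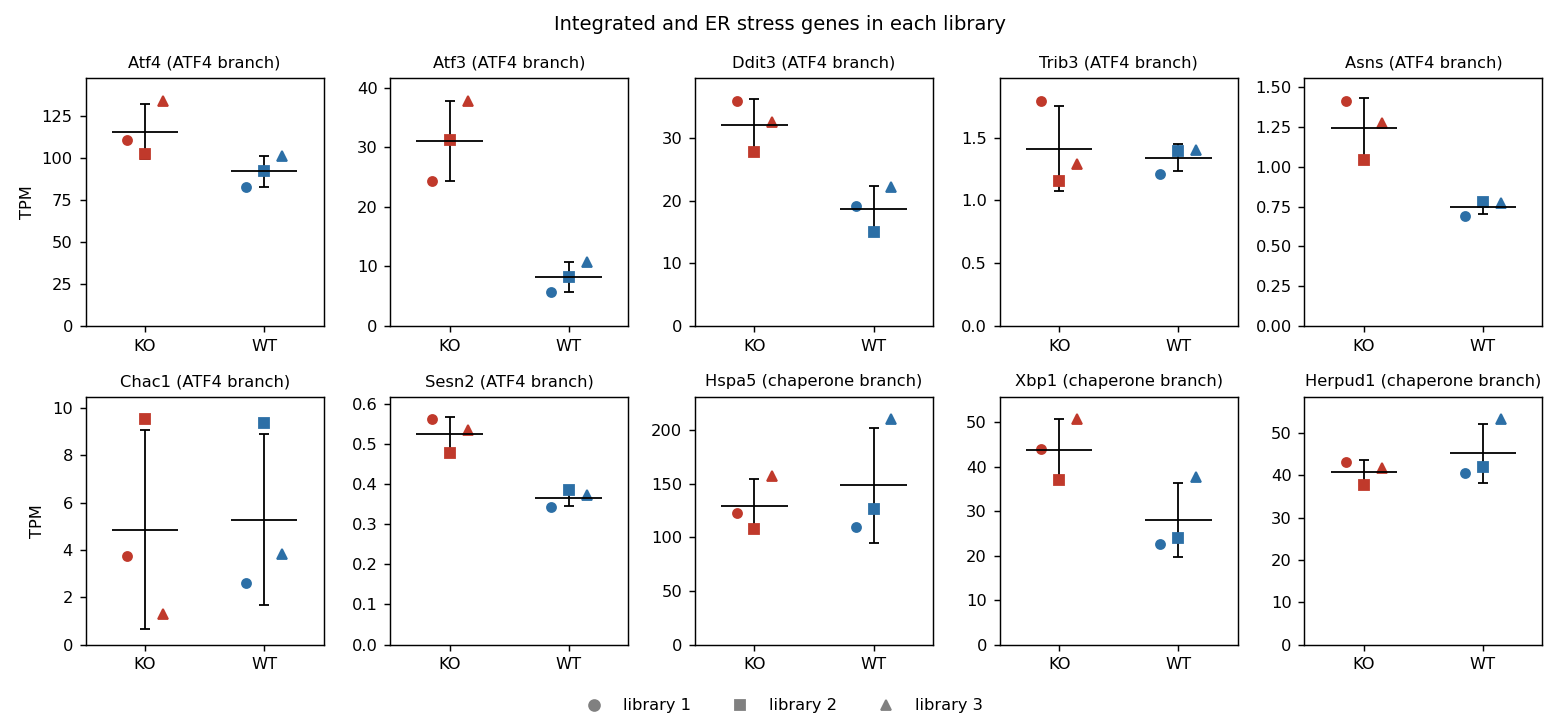
TPM of each of the 10 members (vertical axis from 0, one scale per gene) in the KO libraries and the WT libraries, with marker shape giving the library number, horizontal lines the means and bars 1 SD (n = 3 each). Atf3, Ddit3, Asns, Sesn2 and Atf4 have no overlap between the groups, and Chac1 is high in library 2 of both. Hspa5, Xbp1, Herpud1, Atf4, Atf3, Ddit3 and Trib3 are highest in WT library 3 among WT libraries.

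Of the effector genes of the ATF4 branch, Asns alone passed the test, and it was very low. Trib3, a pseudokinase that restrains ATF4 and AKT signalling (ENSMUSG00000032715, chromosome 2, 152337422 to 152344032, minus strand), was at 1.79, 1.15 and 1.29 TPM in KO libraries and at 1.21, 1.40 and 1.40 TPM in WT libraries. Its groups overlapped, with the highest and the lowest value both in KO. Trib3 thus had a log2 fold change of 0.04 with a 95% interval of -0.27 to 0.34 (limma, adjusted p = 0.845), and of -0.21 after trimmed-mean rescaling (adjusted p = 0.216).

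Chac1, a glutathione-degrading enzyme and a sensitive target of ATF4 (ENSMUSG00000027313, chromosome 2, 119351229 to 119354381, plus strand), was at 3.75, 9.52 and 1.30 TPM in KO libraries and at 2.62, 9.38 and 3.82 TPM in WT libraries. Library 2 of each genotype held the most, and the spread within a genotype, 7.30 times from lowest to highest in KO and 3.58 times in WT, was far larger than the difference between means of 4.86 ± 4.22 TPM in KO and 5.27 ± 3.61 TPM in WT (SD, n = 3 each). For Chac1 the log2 fold change was -0.22 with an interval of -1.26 to 0.82 (limma, adjusted p = 0.722), wide enough to hold both a large rise and a large fall. After trimmed-mean rescaling it was -0.55 (adjusted p = 0.521).

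Asns, asparagine synthetase (ENSMUSG00000029752, chromosome 6, 7675169 to 7693254, minus strand), was low in both groups, at 1.41, 1.04 and 1.28 TPM in KO libraries and at 0.694, 0.777 and 0.771 TPM in WT libraries. The groups did not overlap, and the KO mean was 1.67 times the WT mean. All WT values lay under 1 TPM, so Asns entered the fit through the KO libraries alone and had to be higher to be tested. Its log2 fold change of 0.36 (limma, adjusted p = 0.0422) therefore lends no support of its own, and Asns fell under the filter after trimmed-mean rescaling. The call was lost without WT library 1 (adjusted p = 0.126), without WT library 2 (0.0909) and without WT library 3 (0.0646), without the intensity trend (0.054) and on a scale over nuclear genes alone (0.108), and after quantile normalization the sign turned (-0.066, adjusted p = 0.695). Over its 10 alternatives the adjusted p of Asns ran from 0.0384 to 0.695.

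Sesn2, sestrin 2, which restrains mTORC1 when amino acids are short (ENSMUSG00000028893, chromosome 4, 132492032 to 132510501, minus strand), stayed under 1 TPM everywhere and was not tested in that fit. It was at 0.561, 0.477 and 0.535 TPM in KO libraries, against 0.342, 0.384 and 0.372 TPM in WT libraries. These groups did not overlap either, with a KO mean 1.43 times the WT mean, and with no filter on low values the adjusted p was 0.0583 (limma).

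In the chaperone branch Xbp1 rose on the deposited scale, and neither Hspa5 nor Herpud1 passed as higher. Xbp1, the target of IRE1 and a driver of secretory pathway genes (ENSMUSG00000020484, chromosome 11, 5520659 to 5525893, plus strand), was at 43.9, 37.0 and 50.7 TPM in KO libraries and at 22.6, 24.0 and 37.7 TPM in WT libraries. The groups met at their edges, since WT library 3 was just above KO library 2. The KO mean of 43.9 ± 6.84 TPM was 1.56 times the WT mean of 28.1 ± 8.38 TPM (SD, n = 3 each), a log2 fold change of 0.65 ± 0.20 (standard error; limma, adjusted p = 0.0251). After trimmed-mean rescaling it was 0.24 (adjusted p = 0.301). The call was lost in 8 of 16 alternatives, among them those without KO library 1 (adjusted p = 0.0628), KO library 3 (0.0872), WT library 1 (0.0945) or WT library 2 (0.0946), in a range of 0.00527 to 0.301.

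Hspa5 encodes BiP, the main ER chaperone of the HSP70 family and the usual readout of ATF6 (ENSMUSG00000026864, chromosome 2, 34771970 to 34777547, plus strand). It was at 123, 108 and 157 TPM in KO libraries and at 109.6, 126 and 209.7 TPM in WT libraries. The groups overlapped, and WT library 3 held the highest value of all 6. Hspa5 had a log2 fold change of -0.16 with an interval of -0.67 to 0.35 (limma, adjusted p = 0.59) and -0.58 after trimmed-mean rescaling (adjusted p = 0.066). Without WT library 3 it was 0.12 (adjusted p = 0.598).

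Herpud1, an ER membrane protein of the degradation machinery whose promoter above carries both kinds of element (ENSMUSG00000031770, chromosome 8, 94386438 to 94395377, plus strand), was at 43.1, 37.7 and 41.8 TPM in KO libraries and at 40.5, 41.8 and 53.2 TPM in WT libraries. The KO values lay close together and within the WT range except for the lowest. Its fold change on the log2 scale was -0.13 with an interval of -0.47 to 0.20 (limma, adjusted p = 0.487). On the other library scales Herpud1 passed as lower, by -0.55 after trimmed-mean rescaling (adjusted p = 0.00334), by -0.40 after quantile normalization (adjusted p = 0.0137) and by -0.33 over nuclear genes alone (adjusted p = 0.0232).

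**Figure D2:**
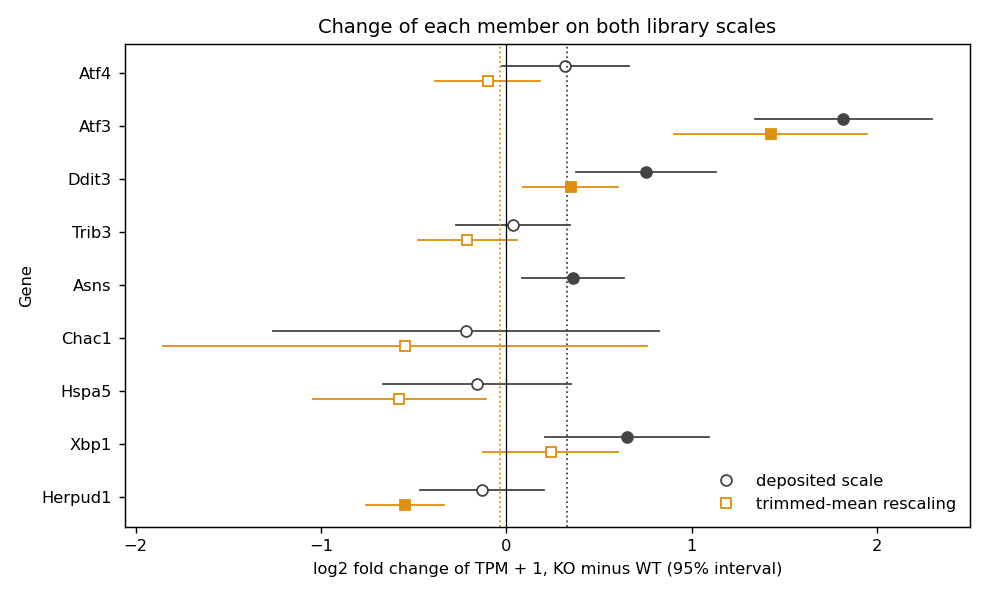
Log2 fold change of TPM + 1, KO minus WT, with 95% limma intervals (horizontal axis) for the 9 members tested, on the deposited scale (circles) and after trimmed-mean rescaling (squares, Asns not tested there); filled marks passed an adjusted p of 0.05 and dotted lines are the medians of all genes on each scale. Atf3 and Ddit3 are filled and right of the medians on both scales, while Herpud1 is filled and left of them after rescaling only.

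Counted together, 4 of the 9 tested members passed as higher on the deposited scale (Atf3, Ddit3, Asns and Xbp1) and 0 as lower, where 36.3% of all genes were higher. One of the 4, Asns, could pass only as higher. The count was 2 without KO library 1 (25.0%, against 22.5% of all genes) or KO library 3 (25.0%, against 23.7%). It was also 2 without WT library 1 (22.2%, against 24.5%) or WT library 2 (22.2%, against 23.0%). Without both KO library 1 and WT library 2 it was 1 (12.5%, against 16.0%). It was 3 without KO library 2 (37.5%, against 38.8%) or WT library 3 (33.3%, against 37.8%). Where a KO library was left out Asns fell under the filter and could not be counted. After trimmed-mean rescaling 2 of 8 were higher, Atf3 and Ddit3 (25.0%, against 13.6% of all genes). Herpud1 was the 1 lower member (12.5%, against 15.2%). KO values lay above all WT values for 5 of the 10 members, all in the ATF4 branch, and below for 0, where 48.7% and 4.83% of all tested genes did so. On the deposited scale the shares of the members are near those of the transcriptome, and among the members Atf3 had the largest fold change. By branch, 3 of 6 tested genes of the ATF4 branch were higher around a median log2 difference of 0.34 (-0.10 over 5 after rescaling), and 1 of 3 of the chaperone branch around a median of -0.13 (-0.55 after rescaling). Without WT library 3 the chaperone-branch median was 0.12. Asns, which could enter only through KO, is in the first of these medians.

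Ratios of members within a library do not depend on the scale of the library. Each of the 7 ATF4-branch genes was divided by each of the 3 chaperone-branch genes, giving 21 ratios that share their numerators and denominators. Against Hspa5, 5 of 7 ratios were higher in all KO than in all WT libraries (37.7% of all tested genes were), and against Herpud1 also 5 of 7 (66.7%). Both counts include Asns, which entered the fit through KO alone, and Sesn2, which was not among the tested genes. Against Xbp1 only 1 of 7 was, that of Atf3 (8.6%). With 3 libraries against 3 an exact permutation test cannot go below 0.1, so the ratios are given as values.

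The ratio of Atf3 to Hspa5 was 0.199, 0.289 and 0.241 in KO libraries and 0.0515, 0.0655 and 0.0514 in WT libraries, 4.30 times as high in KO by the geometric means. The ratio of Ddit3 to Hspa5 was 0.293, 0.257 and 0.207 in KO, against 0.174, 0.119 and 0.106 in WT. Both ratios were therefore higher in every KO than in every WT library, as were those of 37.7% of all tested genes to Hspa5. Ddit3 to Xbp1 did not separate, at 0.818, 0.751 and 0.642 in KO and 0.846, 0.624 and 0.589 in WT. The ratio of Xbp1 to Hspa5, singled out after its values were seen, was 0.359, 0.342 and 0.323 in KO libraries and 0.206, 0.190 and 0.180 in WT libraries. This pair, both of the chaperone branch, kept a nearly fixed ratio within each genotype even though both genes were high in WT library 3.

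Against Atf4 itself, the ratios of Atf3, Ddit3 and Asns were higher in every KO library, and that of Trib3 was not. The share of all genes that separated so against Atf4 was not computed. Before any division 48.7% of all tested genes were higher in every KO library. Atf3 to Atf4 was 0.220, 0.305 and 0.282 in KO libraries and 0.0681, 0.0892 and 0.107 in WT libraries. Ddit3 to Atf4 was 0.325, 0.272 and 0.243 in KO libraries and 0.231, 0.162 and 0.220 in WT libraries, a narrow separation. Asns to Atf4 was 0.0128, 0.0102 and 0.00953 in KO libraries and 0.00839, 0.00841 and 0.00762 in WT libraries, also without overlap. Because Asns entered the fit through the KO libraries alone, its ratio lends no support of its own. Trib3 to Atf4 was 0.0162, 0.0113 and 0.00962 in KO libraries and 0.0147, 0.0151 and 0.0139 in WT libraries, with the highest and both lowest values in KO.

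**Figure D3:**
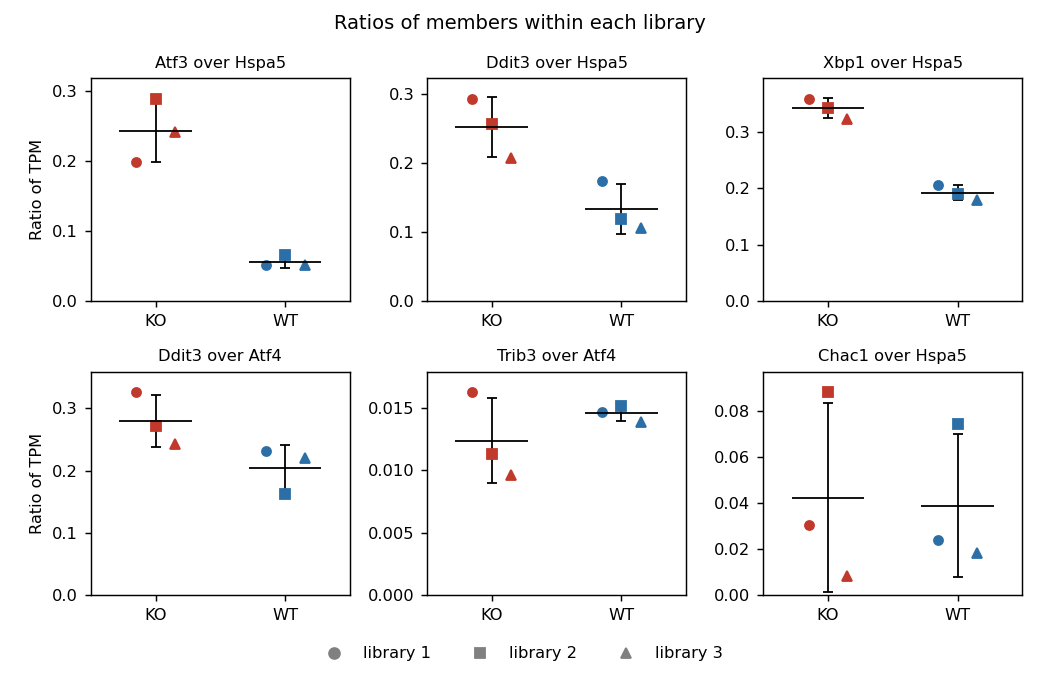
Ratios of TPM of pairs of members within each library (vertical axis from 0, one scale per pair) for the KO libraries and the WT libraries, with marker shape giving the library number, lines the means and bars 1 SD (n = 3 each). The ratios of Atf3, Ddit3 and Xbp1 to Hspa5 and of Ddit3 to Atf4 do not overlap between the groups, while those of Trib3 to Atf4 and Chac1 to Hspa5 do.

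In the wider ATF4 pathway Eif4ebp1 and Slc1a5 rose by about as much as Atf3, Cth fell, and the transfer RNA synthetases other than Wars1 did not pass. Of 43 further genes of amino acid metabolism, transport, transfer RNA charging and stress, 36 were tested, 12 were higher in KO (33.3%) and 1 was lower, with a median log2 fold change of 0.29. All tested genes had 36.3% higher and a median of 0.33, so the list's count and median were near those of the transcriptome. After trimmed-mean rescaling 4 were higher (11.1%, against 13.6% of all genes) and 3 lower (8.33%, against 15.2%). Without KO library 3 the deposited scale gave 6 higher (18.2%, against 23.7% of all genes). The genes that passed as higher on both scales were Slc1a5, Eif4ebp1, Psat1 and Stc2. After quantile normalization Psat1 (limma, adjusted p = 0.0534; range over its alternatives 1.64e-05 to 0.0534) and Stc2 (0.135; range 0.00111 to 0.135) did not pass. Stc2 and Slc7a5 entered the fit through the KO libraries alone.

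Eif4ebp1, the translation repressor 4E-BP1, was at 91.5, 60.6 and 91.9 TPM in KO libraries, against 19.8, 22.1 and 23.9 TPM in WT libraries (log2 fold change 1.82, limma adjusted p = 2.64e-05, and 1.41 after trimmed-mean rescaling). Slc1a5, a glutamine carrier, was at 18.6, 20.7 and 22.3 TPM in KO libraries, against 5.43, 4.92 and 6.78 TPM in WT libraries (1.69, limma adjusted p = 1.49e-05, and 1.31 after rescaling). The KO means were 3.71 times the WT mean for Eif4ebp1 and 3.60 times for Slc1a5, close to the 3.78 times of Atf3. Psat1, an enzyme of serine synthesis, was uneven at 9.79, 2.96 and 6.78 TPM in KO, against 1.34, 1.76 and 2.18 TPM in WT (1.34, limma adjusted p = 0.00434, and 1.02 after rescaling). Stc2, a secreted glycoprotein induced by ER stress, averaged 1.60 ± 0.337 TPM in KO and 0.559 ± 0.204 TPM in WT (SD, n = 3 each), 0.74 higher on the log2 scale and 0.53 after rescaling.

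Cth, the cysteine-producing enzyme cystathionine gamma-lyase, fell: it was at 2.41, 5.25 and 4.20 TPM in KO libraries, against 11.7, 8.91 and 10.6 TPM in WT libraries (log2 fold change -1.24, limma adjusted p = 0.000952, and -1.59 after trimmed-mean rescaling). Among 12 aminoacyl-tRNA synthetases, which charge transfer RNAs and are known ATF4 targets, 1 was higher (Wars1), where 36.3% of all genes were, and 0 lower, with log2 fold changes from -0.17 to 0.64 around a median of 0.21. After trimmed-mean rescaling Wars1 no longer passed and Yars1 was lower. Of 9 amino acid transporters 6 were tested and 5 were higher (Slc3a2, Slc7a5, Slc7a1, Slc1a5 and Slc6a9), where 36.3% of all genes were. Slc7a5 entered through KO alone and could pass only as higher, and after rescaling Slc1a5 alone passed, where 13.6% of all genes were higher. The hormones Fgf21 and Gdf15, known as secreted signs of this response in mitochondrial muscle disease, were named after their values were seen. Fgf21 was at 0 to 0.0609 TPM in KO and 0 to 0.0507 TPM in WT, and Gdf15 at 0.198 to 0.206 TPM in KO and 0.219 to 0.390 TPM in WT.

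Of 37 other ER folding and degradation genes 36 were tested, 17 were higher in KO (47.2%, against 36.3% of all genes) and 1 was lower, with a median log2 fold change of 0.51. After trimmed-mean rescaling 3 were higher (8.33%, against 13.6%) and 2 lower, with a median of 0.09. Without KO library 1 the deposited-scale count was 9 (25.0%, against 22.5% of all genes). It was 11 without KO library 3 (30.6%, against 23.7%) and 10 without WT library 1 (27.8%, against 24.5%). Without WT library 2 it was 8 (22.2%, against 23.0%), and without both KO library 1 and WT library 2 it was 4 (11.1%, against 16.0%). It was 21 without KO library 2 (58.3%, against 38.8%) and 23 without WT library 3 (63.9%, against 37.8%). Edem1, Txndc5 and Uggt1 passed on both scales. Edem1, which hands misfolded glycoproteins to degradation, was at 7.50, 5.80 and 5.79 TPM in KO, against 3.58, 2.90 and 2.90 TPM in WT (0.83, limma adjusted p = 0.00151, and 0.48 after rescaling). Txndc5, a disulphide isomerase, averaged 13.6 ± 1.48 TPM in KO and 7.91 ± 0.894 TPM in WT, and Uggt1, a folding sensor for glycoproteins, 14.8 ± 2.45 TPM in KO and 8.60 ± 0.667 TPM in WT (SD, n = 3 each). Both were 0.71 higher on the log2 scale and 0.32 after rescaling. Os9, a lectin of the degradation pathway, was 0.70 higher on the deposited scale (limma, adjusted p = 0.0068) and did not pass after rescaling (0.31, adjusted p = 0.0901).

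Selenos, a selenoprotein of the ER membrane that takes part in the removal of misfolded proteins, fell in KO. It was at 39.3, 50.9 and 47.2 TPM in KO libraries, against 88.6, 82.7 and 134 TPM in WT libraries, without overlap. This was a log2 fold change of -1.11 ± 0.19 (standard error; limma, adjusted p = 0.00116) and -1.53 after trimmed-mean rescaling, the largest fall of its list on both scales.

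WT library 3 held the highest WT value for all 3 chaperone-branch members and for 33 of the 36 tested ER folding and degradation genes (91.7%), where it did so for 69.2% of all tested genes. Atf4, Atf3, Ddit3 and Trib3 of the ATF4 branch were also highest there among WT libraries. In all, 7 of the 9 tested members were (77.8%). Mitochondrial transcripts took 43.0% of that library, against 52.3% and 51.1% in WT libraries 1 and 2 (39.0 to 45.7% in KO). Over nuclear genes alone WT library 3 was still the highest for 22 of the 36 (61.1%), where it was for 28.5% of all genes. It was so for 4 of the 9 tested members, among them all 3 of the chaperone branch. Manf, a secreted ER stress protein named after its values were seen, was at 58.6 TPM there and at 27.3 and 23.6 TPM in WT libraries 1 and 2. The WT group against which both branches are compared was thus itself uneven.

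**Figure D4:**
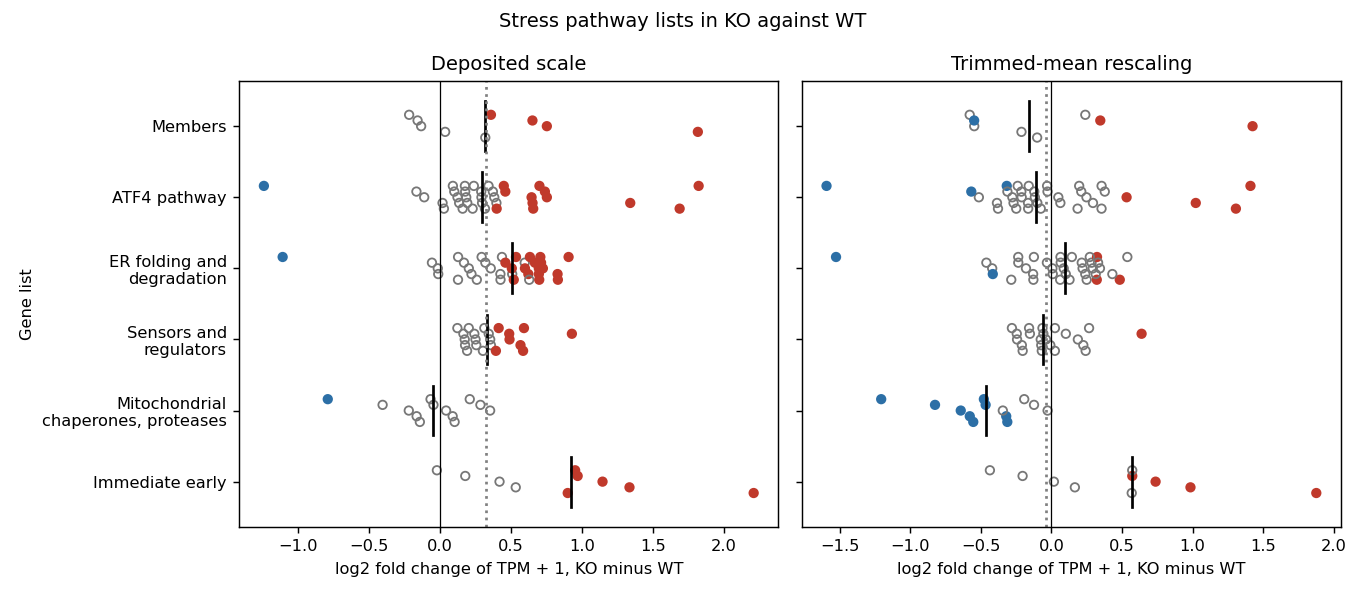
Log2 fold change of TPM + 1, KO minus WT (horizontal axis), of each tested gene in the members and the 5 other lists on the deposited scale and after trimmed-mean rescaling; red points passed as higher in KO, blue as lower, open points did not pass, black ticks are list medians and the dotted line is the median of all genes. On the deposited scale the median of the ER folding genes (0.51) lies right of that of all genes (0.33), with 17 red points, 1 blue and 18 open, and after rescaling 3 points are red, and 9 mitochondrial genes are blue after rescaling.

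Among the sensors and the translation factors they act on, the share higher in KO was close to that of all genes. Of 23 genes, 22 were tested, 8 were higher (36.4%, against 36.3% of all) and 0 lower. After trimmed-mean rescaling 1 was higher, Eif2ak2 (4.55%, against 13.6% of all genes). The deposited-scale count was 4 without KO library 1 (18.2%, against 22.5% of all genes) or KO library 3 (18.2%, against 23.7%). It was 5 without WT library 1 (22.7%, against 24.5%) and 3 without WT library 2 (13.6%, against 23.0%). Eif2ak2, the double-stranded RNA kinase PKR, itself an interferon-induced gene, was at 4.26, 2.91 and 3.27 TPM in KO libraries, against 1.28, 1.47 and 1.27 TPM in WT libraries (0.93, limma adjusted p = 0.000619, and 0.64 after rescaling, adjusted p = 0.00598). Eif2ak3, the ER stress kinase PERK, averaged 2.21 ± 0.271 TPM in KO and 1.28 ± 0.0326 TPM in WT (0.49, limma adjusted p = 0.0125, and 0.23 after rescaling, adjusted p = 0.21). Atf6b and Creb3l2, membrane-bound factors related to ATF6, were each 0.59 higher on the deposited scale, and neither passed after rescaling (limma adjusted p = 0.155 for Atf6b and 0.137 for Creb3l2).

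Mitochondrial chaperones and proteases, which answer misfolding inside mitochondria, did not pass as higher. Of 13 genes 0 were higher before rescaling, where 36.3% of all genes were. In the same fit 1 was lower (7.69%, against 2.92%), and the median was -0.05. After trimmed-mean rescaling 9 were lower (69.2%, against 15.2% of all genes). Clpx, the unfoldase of the ClpXP protease, was at 30.01, 47.4 and 40.2 TPM in KO, against 56.8, 75.0 and 71.8 TPM in WT (-0.79, limma adjusted p = 0.00672, and -1.21 after rescaling). The fall of Clpx did not pass without both KO library 1 and WT library 2 (-0.54, adjusted p = 0.0854; range over its alternatives 0.00193 to 0.0854). Without KO library 1 the deposited-scale count of lower genes was 2 (15.4%, against 2.55% of all genes). The count of higher genes was 1 without KO library 2 (7.69%, against 38.8%) or WT library 3 (7.69%, against 37.8%). Hspa9, the mitochondrial HSP70, averaged 203 ± 13.4 TPM in KO and 237 ± 21.7 TPM in WT (SD, n = 3 each), without passing on the deposited scale (-0.22, limma adjusted p = 0.23). It passed as lower after trimmed-mean rescaling (-0.64, adjusted p = 0.00173), quantile normalization (-0.39, 0.0127) and over nuclear genes alone (-0.42, 0.0103), in a range over its alternatives of 0.00173 to 0.457.

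Immediate early genes, switched on within minutes of a stimulus and only in part transcription factors, form a class to which Atf3 is often assigned. Of 12 genes 10 were tested and 6 were higher (60.0%, against 36.3% of all genes), with a median of 0.93, and after trimmed-mean rescaling 4 were (40.0%, against 13.6%). Egr1 was at 6.85, 11.8 and 22.7 TPM in KO, against 2.72, 1.55 and 1.54 TPM in WT (2.21, limma adjusted p = 0.000333, and 1.88 after rescaling). Junb averaged 9.02 ± 1.39 TPM in KO and 2.96 ± 0.433 TPM in WT, and Jun, a dimer partner of ATF3, 39.2 ± 6.25 TPM in KO and 17.1 ± 1.64 TPM in WT (SD, n = 3 each). After rescaling the log2 fold change was 0.99 for Junb and 0.74 for Jun, and both passed. Ier2 was 0.90 higher on the deposited scale (limma, adjusted p = 0.00312) and did not pass after rescaling (adjusted p = 0.0534). For both Atf3 and Egr1, KO library 1 was the lowest and KO library 3 the highest of the KO libraries.

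Markers of some other cell types also differed between KO and WT libraries. All 12 macrophage markers were higher in every KO than in every WT library, with sums of 199.8 to 252 TPM in KO and 40.6 to 48.3 TPM in WT, and all 9 fibroblast progenitor markers were too, with sums of 886 to 934 TPM in KO and 295 to 327 TPM in WT. Of all tested genes 48.7% lay so and 4.83% lay lower in every KO library. Their part in the values of Atf3, Ddit3, Xbp1 and the ER folding genes was not tested. Of the macrophage list Fcgr1 alone was at 0 TPM in any library. Mast cell markers (5 of 5) and endothelial markers (4 of 6) also lay higher in every KO library, with 1 endothelial marker, Kdr, lower in every KO library, with sums of 9.35 to 15.6 and 157 to 180.0 TPM in KO and 2.16 to 4.62 and 87.2 to 95.1 TPM in WT, and adipocyte markers (0 of 6) did not, at 22.8 to 104 TPM in KO and 25.2 to 57.4 TPM in WT. Markers of B and plasma cells, which are rich in Xbp1, summed to 3.36 to 4.53 TPM in KO and 1.83 to 2.91 TPM in WT over 8 genes, of which 3 lay higher in every KO library, with Jchain at 0.115 to 0.239 TPM in KO and 0.0912 to 0.168 TPM in WT. The part of the liver genes of KO library 1 was not tested either, and without that library the log2 fold change was 1.98 for Atf3 and 0.67 for Ddit3, both of which passed. Xbp1 did not pass without it (0.64, limma adjusted p = 0.0628), though its fold change was 0.65 with it. Without that library 9 ER folding genes were higher in place of 17 (25.0% in place of 47.2%). The share of all genes that were higher went from 36.3% to 22.5%. Without WT library 2 the ER folding count was 8 (22.2%, against 23.0% of all genes).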

How the data were processed

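Poly(A) RNA was extracted with TRIzol and made into libraries with NEBNext Ultra reagents, per the labels' protocols. The submitters' processing notes name STAR 2.5.3a and kallisto 0.43.0 beside the builds GRCm38 and mm10, with no step given. The deposited values were taken as TPM from the values alone, since no header names the unit. Depth is unknown.

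Genes missing from a library were set to 0. Positions are those of GENCODE M21 for GRCm38. limma 3.58.1 in R 4.3.3 was run with an intensity trend on log2(TPM + 1), on 4 residual degrees of freedom, with Benjamini-Hochberg adjustment at 0.05, and tested on simulated data. Trimmed-mean rescaling dropped 30% of ratios and 5% of levels at each end. Tables were made with pandas 2.3.3 and numpy 2.4.6 in Python 3.11.15, and plots with matplotlib 3.10.9.

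The members, lists, tests and alternatives were chosen with earlier results of these data known. Named genes were Cavin1, the members and, from each list, the 4 passing genes with the smallest adjusted p in each direction, with the most abundant gene where fewer than 2 passed. Markers and any gene marked as such in the text were added. No set test was run.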

Additional observations from a re-analysis of the deposited data

How the results depend on the processing

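The numbers of genes higher and lower in KO were recomputed under 16 alternatives. On the deposited scale 4016 of all genes were higher and 323 lower, and leaving out each library in turn gave 2379 to 4150 higher and 219 to 346 lower, with 2379 higher without KO library 1, 2504 without KO library 3 and 2535 without WT library 2. The same gave 2 to 3 higher members, 6 to 14 higher ATF4 pathway genes, 8 to 23 higher ER folding genes, 3 to 8 higher sensors, and 0 to 1 higher and 1 to 2 lower mitochondrial genes. Among the members, Asns was not tested where a KO library was left out. After quantile normalization 1373 genes were higher and 1450 lower, with 2 members higher and 1 lower, 2 ATF4 pathway genes higher and 2 lower, 4 ER folding genes higher and 2 lower, 1 sensor higher, 6 mitochondrial genes lower and 3 immediate early genes higher. After trimmed-mean rescaling 1493 genes were higher and 1666 lower, with 2 members higher and 1 lower, 4 ATF4 pathway genes higher and 3 lower, 3 ER folding genes higher and 2 lower, 1 sensor higher and 9 mitochondrial genes lower. Over nuclear genes alone 2634 were higher and 760 lower, with 1 member lower, 7 ATF4 pathway genes higher and 2 lower, 3 sensors higher and 4 mitochondrial genes lower. Without both KO library 1 and WT library 2, 1673 were higher and 213 lower, with 1 member, 5 ATF4 pathway genes, 4 ER folding genes and 3 sensors higher and 0 mitochondrial genes lower. A filter of 10 TPM, which tests fewer genes, gave 1616 higher, with 5 ATF4 pathway genes higher and 0 lower, 4 sensors and 3 immediate early genes higher. With no filter 9 ER folding genes were higher. For the scalings and the omitted libraries the cause of these moves was not tested.

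The log2 fold change of Atf4 turned to -0.10 after trimmed-mean rescaling, and that of Asns to -0.066 after quantile normalization. Trib3 turned to -0.38 after quantile normalization, -0.21 after trimmed-mean rescaling, -0.083 over nuclear genes and -0.056 without both KO library 1 and WT library 2, and ran from -0.075 to 0.11 with each library left out. Chac1 turned to 0.24 without both libraries and to 0.22 without WT library 2, and ran from -0.77 without KO library 2 to 0.32 without KO library 3. Hspa5 ran from -0.35 without WT library 1 to 0.12 without WT library 3. None of these passed. Deviations of same-numbered libraries from their group means correlated at 0.03, -0.01 and 0.04 over genes, and no KO library correlated best with its own number, so the numbers were not taken as pairs. With the number as a replicate block 3 members were higher, Asns being lost (adjusted p = 0.0574), with 20 ER folding genes and 6 sensors higher. The unknown depth and 3 libraries per genotype limit what can be detected, above all for Asns, Sesn2, Trib3 and Chac1.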
